A study of Mus musculus with 12 samples.

Results

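The expression of 10 genes of the FoxO and autophagy pathway was followed in mouse liver after zinc in the drinking water and after dexamethasone (Dex), which activates the glucocorticoid receptor (GR). The genes were taken by symbol from the table of raw read counts, and all 10 were found among its 54838 genes, of which 26191 had at least 1 count. RNA was from whole livers of 12 C57BL/6J mice, adult females according to the methods of the study, with no genetic modification, in 4 groups of 3. Water-PBS mice drank plain water for 7 days and were injected with PBS. Zinc-PBS mice drank 25 mM ZnSO4 in their water for 7 days and were injected with PBS. Water-Dex mice drank plain water and were injected with 200 µg Dex in PBS. Zinc-Dex mice received both the zinc water and Dex. The injections were intraperitoneal, and all livers were taken 2 h later, so every mouse had been injected. Each library is 1 mouse and n = 3 per group, and the series describes them as biological replicates.

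FoxO1 and FoxO3 are forkhead transcription factors that insulin signalling keeps out of the nucleus, and that in the fasting liver drive genes of gluconeogenesis, growth arrest and autophagy. Autophagy starts when the ULK1 kinase and its scaffold FIP200 (encoded by *Rb1cc1*) set up a membrane on which WIPI1 binds a phosphoinositide. The ATG8 proteins, of which LC3B (*Map1lc3b*) and GABARAPL1 are members, are then attached to lipid, and cargo is brought in by receptors such as p62 (*Sqstm1*) and the mitochondrial BNIP3. TFEB is a transcription factor for genes of lysosomes and autophagy, and mTORC1, the nutrient-sensing kinase, restrains both ULK1 and TFEB.

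The promoters of *Foxo1*, *Foxo3*, *Bnip3* and *Map1lc3b* are shown because these were the 4 members of the pathway that rose most after Dex. The sequence is from RefSeq on GRCm38.p6, 5′ to 3′ on the strand of the gene. RefSeq windows of 250 bases end at the RefSeq start, which for these genes lies 1 (*Foxo1*), 60 (*Foxo3*), 13 (*Bnip3*) and 77 bases (*Map1lc3b*) inside the gene models whose coordinates are given below, and only the bases before those gene models are printed. Capitals mark matches, on either strand, to 5 short motifs: the core bases of a GR site (AGAACA), the core of forkhead factors (TGTTTA), the E-box of TFEB and related factors (CACGTG) and the 2 forms of the core of the metal response element (TGCACNC and TGCGCNC).
Foxo1, chr3:52268087-52268335, plus strand: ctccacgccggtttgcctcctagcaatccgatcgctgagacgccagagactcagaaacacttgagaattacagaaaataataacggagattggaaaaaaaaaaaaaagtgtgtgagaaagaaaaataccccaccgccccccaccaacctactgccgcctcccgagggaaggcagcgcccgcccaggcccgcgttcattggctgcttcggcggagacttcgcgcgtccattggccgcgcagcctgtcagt
Foxo3, chr10:42276756-42276945, minus strand: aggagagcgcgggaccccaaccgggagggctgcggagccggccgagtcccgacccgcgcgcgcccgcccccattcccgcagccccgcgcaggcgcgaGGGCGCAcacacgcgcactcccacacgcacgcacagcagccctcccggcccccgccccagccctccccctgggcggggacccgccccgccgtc
Bnip3, chr7:138909520-138909756, minus strand: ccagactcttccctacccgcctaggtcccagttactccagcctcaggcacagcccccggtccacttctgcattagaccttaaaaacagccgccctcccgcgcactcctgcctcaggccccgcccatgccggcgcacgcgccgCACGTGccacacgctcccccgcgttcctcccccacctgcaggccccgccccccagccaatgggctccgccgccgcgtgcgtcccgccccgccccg
Map1lc3b, chr8:121590188-121590360, plus strand: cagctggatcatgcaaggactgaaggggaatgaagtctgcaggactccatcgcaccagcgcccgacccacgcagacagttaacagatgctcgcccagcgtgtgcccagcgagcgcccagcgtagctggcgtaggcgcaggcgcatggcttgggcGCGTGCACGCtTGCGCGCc

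RefSeq windows were matched for 9 of the 10 genes, with 11 windows because *Tfeb* has 3 starts, and *Rb1cc1* was not matched. The motifs were searched in the whole 250 bases, and positions are counted from the start of the gene model. The window of *Wipi1* and 2 of those of *Tfeb* lie wholly inside the gene models. The GR core was in 0 of these windows, against 16.1% of the 32851 promoters of the same length. The forkhead core was in 1, *Gabarapl1*, whose 6 letters on the minus strand begin 62 bases before the start, against 12.0% of all promoters. The E-box was in 1, *Bnip3*, 95 bases before its start, against 6.02%. The metal response core TGCACNC was in *Map1lc3b*, 2 overlapping matches on opposite strands from 19 and 16 bases before the start, and in 1 of the windows inside *Tfeb*, against 10.4%. TGCGCNC was in *Map1lc3b*, 8 bases before the start, and in *Foxo3*, 93 bases before it, against 12.5%. These are matches of letters in a short window and say nothing of binding.

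Total counts were 9091152 to 12303527 per library and mitochondrial genes held 5.46 to 6.17% of the counts. Levels below are read counts normalized by the size factors of DESeq2. A gene is said to rise or fall where the DESeq2 adjusted p, over all genes tested, is under 0.05, and log2 fold changes are unshrunken. Both treatments were visible in their known targets: zinc raised the metallothionein gene *Mt1* in PBS-injected mice (log2 fold change 3.87, DESeq2 adjusted p = 1.2e-60) and *Mt2* (log2 5.38) and lowered the zinc importer gene *Slc39a4* (log2 -1.50), and Dex raised the GR targets *Fkbp5* (log2 3.12), *Tat* (log2 2.72) and *Per1* (log2 0.998) in mice on plain water. *Mt1* and *Mt2* also rose with Dex on plain water (log2 4.44 and 6.42), so here they do not mark zinc alone. Among Dex mice zinc raised *Mt1* (log2 0.84, DESeq2 adjusted p = 0.0189), and *Mt2* did not pass (0.69, adjusted p = 0.477). *Slc39a4* was lower with zinc among Dex mice too (log2 -1.54, DESeq2 adjusted p = 8.66e-19). Hepatocyte markers were detected for all 6 genes listed. In bulk liver, fewer cells of a type and less RNA per cell cannot be told apart.

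Dex raised 5 of the 10 genes on plain water and lowered 0, where 21.6% of all genes tested passed in either direction. In mice on zinc water it raised 7 and lowered 1, where 20.1% of all genes passed. The median log2 fold change of the 10 genes was 0.46 on plain water and 0.57 on zinc, and that of all genes was -0.01 in both. With a further limit of 0.8 on the absolute log2 fold change, 3 genes remained on plain water and 5 on zinc water, against 9.68% of all genes in each comparison. The 3 Dex mice lay wholly outside the range of the 3 PBS mice for 7 genes on plain water, against 39% of all genes, and for 9 genes on zinc water, against 38.1%. The plot of values by mouse shows the 10 genes in all 4 groups.

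**Figure D1:**
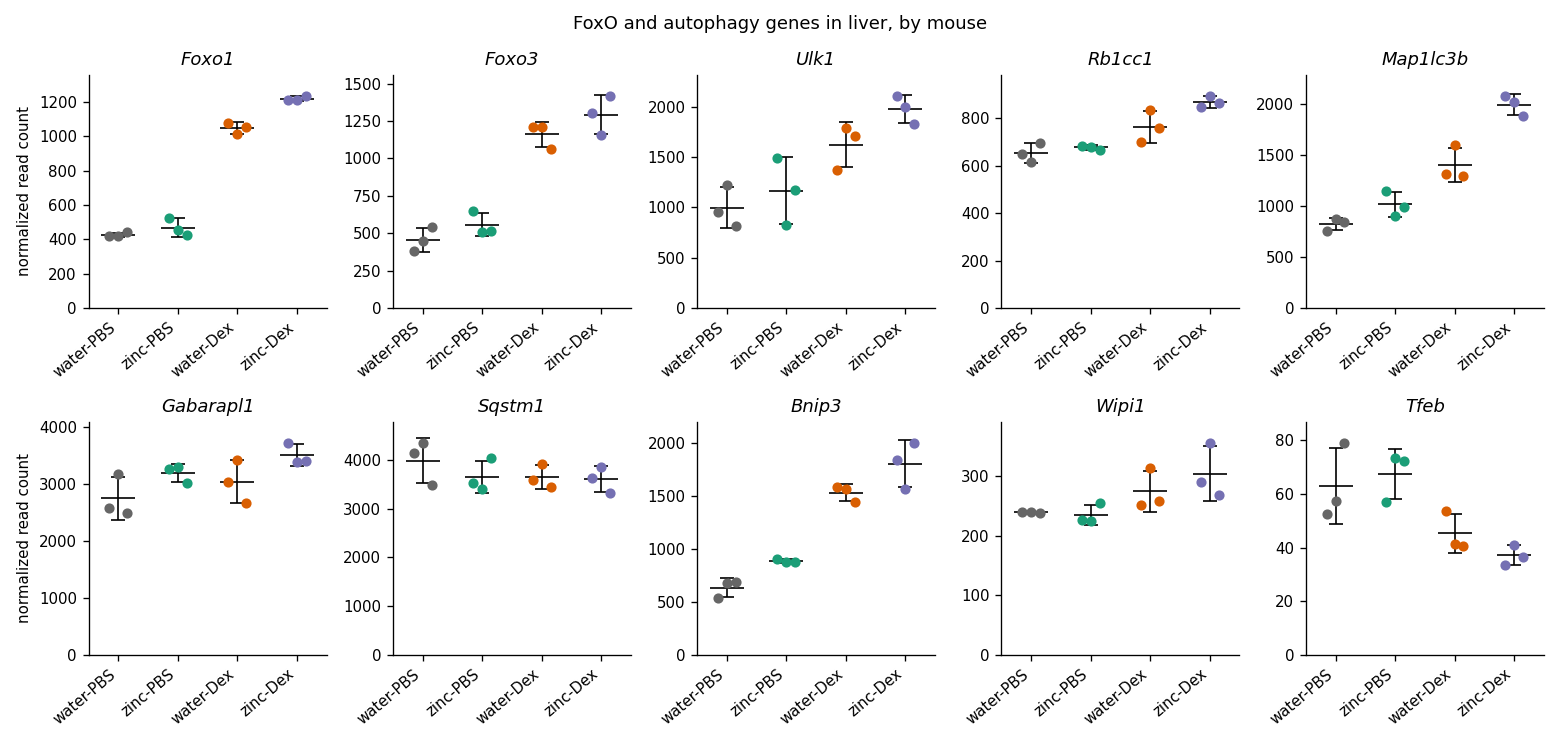
Normalized read counts (y axis, from 0, a separate scale for each gene) in the 4 groups (x axis). Each point is 1 mouse, the bar is the mean and the whiskers are 1 SD of n = 3. For *Foxo1*, *Foxo3*, *Bnip3* and *Map1lc3b* all 6 Dex mice lie above all 6 PBS mice, and for *Sqstm1* the 4 groups overlap.

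*Foxo1* (ENSMUSG00000044167, chromosome 3, 52268336 to 52353221, plus strand of GRCm38) and *Foxo3* (ENSMUSG00000048756, chromosome 10, 42181841 to 42276755, minus strand) both rose with Dex in both waters. The normalized counts of *Foxo1* were 419, 417 and 441 in water-PBS and 527, 455 and 424 in zinc-PBS. They were 1079, 1011 and 1052 in water-Dex mice and 1211, 1211 and 1235 in zinc-Dex mice. Every Dex mouse was above every PBS mouse, and the zinc-Dex mice were above the water-Dex mice without overlap. With Dex, *Foxo1* rose 2.46-fold on plain water (log2 1.30, 95% interval 1.12 to 1.48, DESeq2 adjusted p = 3.94e-42) and 2.60-fold on zinc (log2 1.38, 1.20 to 1.56, adjusted p = 6.83e-50). Zinc after Dex added a log2 difference of 0.22 (0.05 to 0.39), which did not pass over all genes (DESeq2 adjusted p = 0.261).

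*Foxo3* had 381, 448 and 540.3 normalized counts in water-PBS and 646, 509.6 and 513 in zinc-PBS. It had 1212, 1207 and 1064 in water-Dex mice and 1302, 1159 and 1417 in zinc-Dex mice. Again all Dex mice were above all PBS mice, with more spread within groups than *Foxo1*, and the 2 Dex groups overlapped. The rise with Dex was 2.55-fold on plain water (log2 1.35, 1.07 to 1.62, DESeq2 adjusted p = 3.8e-20) and 2.32-fold on zinc (log2 1.22, 0.95 to 1.49, adjusted p = 7.27e-17). Within a library, the ratio of *Foxo1* to *Foxo3* counts averaged 0.942 in water-PBS, 0.844 in zinc-PBS, 0.903 in water-Dex and 0.946 in zinc-Dex. The Dex minus PBS difference of this log2 ratio was 0.05 (two-sided exact permutation test within the water and within the zinc mice, p = 0.54, adjusted over 3 ratios 0.54, smallest possible p 0.005).

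Of the initiation genes, *Ulk1* rose with Dex in both waters and *Rb1cc1* on zinc water. *Ulk1* (ENSMUSG00000029512, chromosome 5, 110784488 to 110810097, minus strand) had 959, 1220.4 and 817 normalized counts in water-PBS and 1492, 827 and 1176 in zinc-PBS. It had 1369, 1792 and 1706 in water-Dex mice and 2107, 1997 and 1831 in zinc-Dex mice. The PBS mice were widely spread, with 1 zinc-PBS mouse above the lowest water-Dex mouse, while within each drinking water the Dex mice were above the PBS mice. *Ulk1* rose 1.62-fold with Dex on plain water (log2 0.70, 0.32 to 1.07, DESeq2 adjusted p = 0.00216) and 1.70-fold on zinc (log2 0.76, 0.39 to 1.14, adjusted p = 0.000631).

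*Rb1cc1* (ENSMUSG00000025907, chromosome 1, 6206197 to 6276648, plus strand) had 651, 614 and 696 in water-PBS, 685, 681 and 665 in zinc-PBS, 702, 836 and 758 in water-Dex mice and 846, 894 and 865 in zinc-Dex mice. The Dex mice were above the PBS mice in both waters, by a small margin on plain water. *Rb1cc1* rose 1.28-fold on zinc (log2 0.36, 0.18 to 0.53, DESeq2 adjusted p = 0.000609), and the 1.17-fold difference on plain water lay at the threshold (log2 0.23, 0.05 to 0.41, adjusted p = 0.054). The plain-water difference passed in 4 of 20 alternatives, edgeR among them (adjusted p = 0.0486), and did not pass in 16. Over these its log2 was 0.03 to 0.29 and its adjusted p by DESeq2 or edgeR 0.028 to 0.843. The ratio of *Ulk1* to *Rb1cc1* was 1.51 in water-PBS, 1.67 in zinc-PBS, 2.11 in water-Dex and 2.28 in zinc-Dex, and its log2 was higher by 0.46 with Dex (exact permutation test, p = 0.02, adjusted p = 0.03). That ratio lost its call in 5 of the 12 tests that left out 1 mouse (exact permutation test, adjusted p 0.0525 to 0.0675): without zinc-PBS replicate 2, water-Dex replicate 2 or 3, or zinc-Dex replicate 1 or 2.

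*Wipi1* (ENSMUSG00000041895, chromosome 11, 109573331 to 109611967, minus strand), whose product binds the growing membrane, had 239.4, 239.3 and 238 normalized counts in water-PBS and 226, 224 and 254 in zinc-PBS. It had 251, 314 and 257 in water-Dex mice and 289, 355 and 267 in zinc-Dex mice. The highest zinc-PBS mouse was above 1 water-Dex mouse, but within each water the ranges were apart. *Wipi1* rose 1.29-fold with Dex on zinc water (log2 0.37, 0.10 to 0.64, DESeq2 adjusted p = 0.0383), and on plain water the log2 difference was 0.20 (-0.08 to 0.47, adjusted p = 0.367). The call on zinc was lost in 9 of 20 alternatives, among them leaving out water-PBS replicate 2, zinc-PBS replicate 1 or 2, or zinc-Dex replicate 1 or 2.

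Of the 2 ATG8 genes, *Map1lc3b* rose with Dex in both waters and *Gabarapl1* passed in neither. *Map1lc3b* (ENSMUSG00000031812, chromosome 8, 121590361 to 121598760, plus strand) had 755, 872 and 840.1 normalized counts in water-PBS and 1153, 907 and 992 in zinc-PBS. It had 1319, 1601 and 1293 in water-Dex mice and 2081, 2022 and 1886 in zinc-Dex mice. The 4 groups were in this order without any overlap, and *Map1lc3b* was the one gene of the 10 of which this held. It rose 1.71-fold with Dex on plain water (log2 0.77, 0.54 to 0.999, DESeq2 adjusted p = 8.28e-10) and 1.96-fold on zinc (log2 0.97, 0.75 to 1.20, adjusted p = 9.35e-16). It was also the one gene of the 10 that passed between zinc-Dex and water-Dex, 1.42-fold higher with zinc (log2 0.51, 0.28 to 0.73, adjusted p = 0.00223), where 1.35% of all genes passed. This call was lost with edgeR (adjusted p = 0.0575) and without water-Dex replicate 3 (DESeq2 adjusted p = 0.0648).

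*Gabarapl1* (ENSMUSG00000030161, chromosome 6, 129533160 to 129542346, plus strand) had 2589, 3189.7 and 2489 in water-PBS and 3277, 3298 and 3016.5 in zinc-PBS. It had 3049, 3423 and 2670.5 in water-Dex mice and 3729.9, 3395 and 3405 in zinc-Dex mice. The water-PBS and water-Dex mice overlapped, and the zinc-Dex mice had the highest mean, above all PBS mice. Neither Dex comparison passed: the log2 difference was 0.14 on plain water (-0.08 to 0.37, DESeq2 adjusted p = 0.429) and 0.13 on zinc (-0.09 to 0.36, adjusted p = 0.487). The ratio of *Gabarapl1* to *Map1lc3b* counts fell from 3.34 in water-PBS to 2.17 in water-Dex and from 3.16 in zinc-PBS to 1.76 in zinc-Dex. All 6 Dex mice were below all 6 PBS mice, and the log2 ratio changed by -0.73 with Dex (exact permutation test, p = 0.005, the smallest this design can give, adjusted p = 0.015). The plot of ratios shows this for each mouse.

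**Figure D2:**
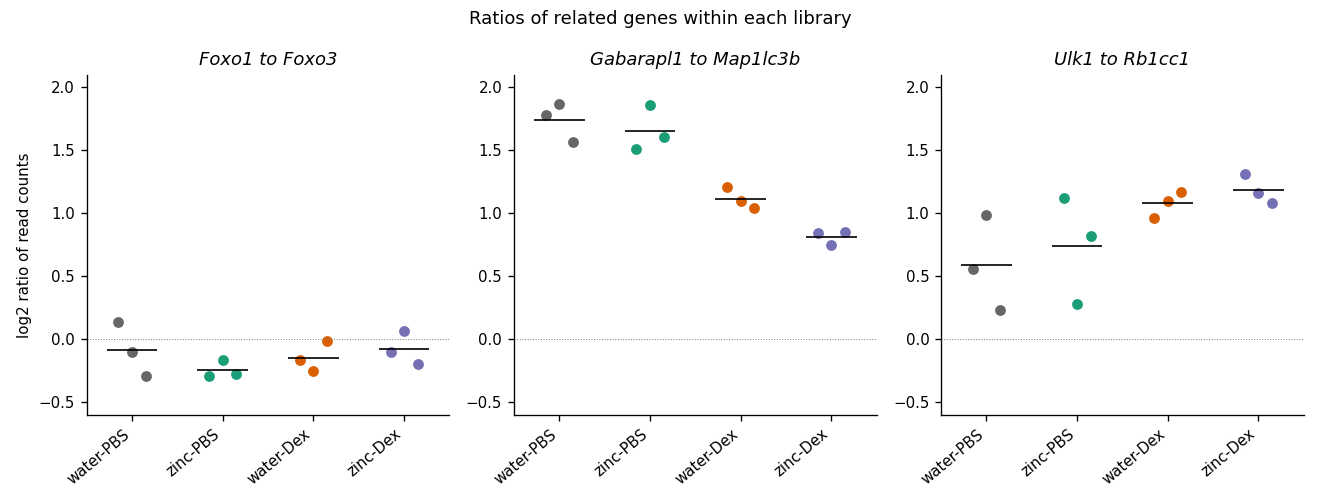
Log2 ratio of the read counts of 2 related genes within each library (y axis, the same scale in the 3 panels) by group (x axis). Points are mice and bars are group means: the *Gabarapl1* to *Map1lc3b* ratio is lower in all 6 Dex mice, the *Ulk1* to *Rb1cc1* ratio is higher on average, and the *Foxo1* to *Foxo3* ratio overlaps between groups.

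Of the 2 cargo receptors, *Bnip3* rose with Dex and *Sqstm1* did not pass. *Bnip3* (ENSMUSG00000078566, chromosome 7, 138890836 to 138909519, minus strand), a mitophagy receptor, had 531, 676 and 691 normalized counts in water-PBS and 904, 873 and 872 in zinc-PBS. It had 1585, 1564.5 and 1437 in water-Dex mice and 1840.0, 1565 and 1999 in zinc-Dex mice. The zinc-PBS mice were above all water-PBS mice, and all Dex mice were above both. *Bnip3* rose 2.42-fold with Dex on plain water (log2 1.27, 1.04 to 1.50, DESeq2 adjusted p = 2.24e-25) and 2.04-fold on zinc (log2 1.03, 0.80 to 1.26, adjusted p = 2.69e-17). Without Dex, zinc raised it 1.40-fold (log2 0.48, 0.25 to 0.71, adjusted p = 0.0195). It was the one gene of the 10 that passed for zinc alone, where 0.341% of all genes did. That call was lost in 7 of 20 alternatives: with edgeR (adjusted p = 0.207), with total counts as size factors (DESeq2 adjusted p = 0.0511), with the replicate number as a term (DESeq2 adjusted p = 0.0898), and without water-PBS replicate 1 or any 1 of the 3 zinc-PBS mice, where the DESeq2 adjusted p reached 0.217.

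*Sqstm1* (ENSMUSG00000015837, chromosome 11, 50199366 to 50210827, minus strand), the gene of p62, had 4139, 4354 and 3477 in water-PBS and 3528, 3408 and 4034 in zinc-PBS. It had 3593, 3915 and 3443 in water-Dex mice and 3639, 3849 and 3324 in zinc-Dex mice. All groups overlapped, and *Sqstm1* passed in none of the comparisons. Its log2 difference with Dex was -0.13 on plain water (-0.34 to 0.08, DESeq2 adjusted p = 0.454) and -0.02 on zinc (-0.23 to 0.19, adjusted p = 0.931).

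*Tfeb* (ENSMUSG00000023990, chromosome 17, 47737030 to 47792419, plus strand) was the least abundant of the 10, with 31 to 84 raw counts per library, and the one gene of the 10 that fell on the size factors of DESeq2. Its normalized counts were 52.5, 57.3 and 79.1 in water-PBS, 56.9, 73.4 and 72.4 in zinc-PBS, 53.8, 41.5 and 40.6 in water-Dex mice and 33.7, 41.1 and 36.5 in zinc-Dex mice. On plain water 1 Dex mouse lay within the PBS range, and on zinc the ranges were apart. *Tfeb* fell to 0.548-fold with Dex on zinc (log2 -0.87, -1.36 to -0.38, DESeq2 adjusted p = 0.00412), and on plain water the log2 difference was -0.47 (-0.95 to 0.01, adjusted p = 0.173). Whether the fall differed between waters was tested by the interaction below, which did not pass.

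**Figure D3:**
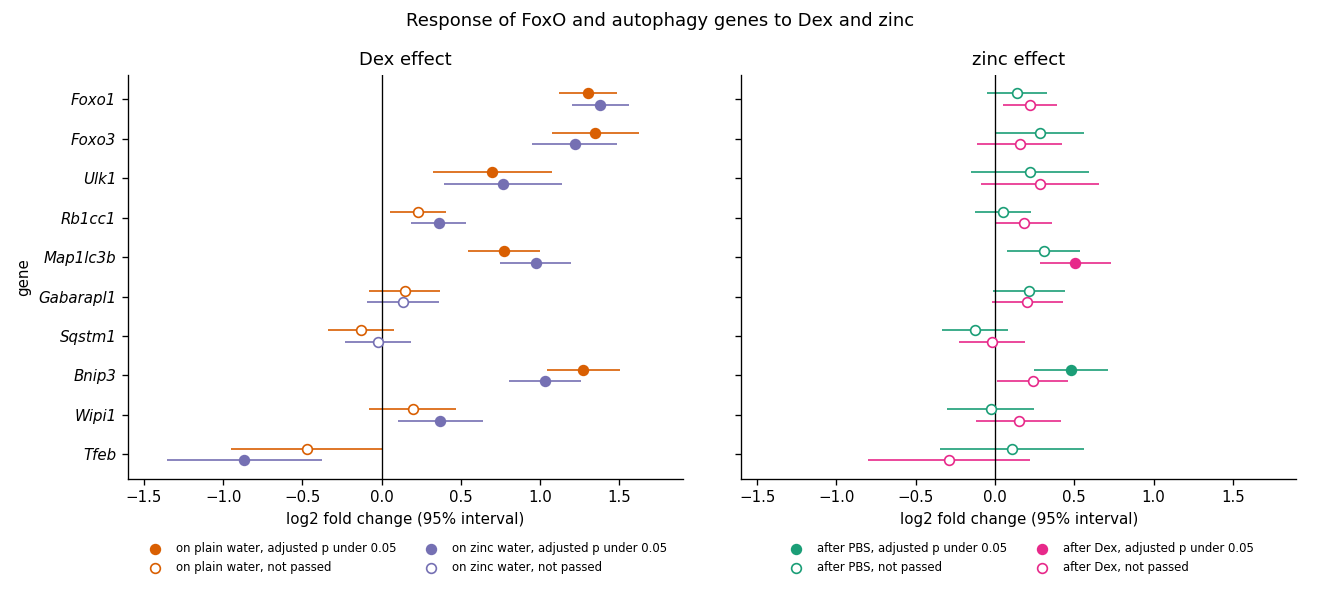
Log2 fold changes (x axis) of the 10 genes (y axis) from the DESeq2 fit, for Dex on plain or zinc water (left) and for zinc after PBS or Dex (right). Bars are 95% intervals and filled points have an adjusted p under 0.05: 5 and 8 genes for Dex, 1 and 1 for zinc.

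Zinc alone left 9 of the 10 genes without a call. Of these, *Map1lc3b* was at log2 0.31 (0.08 to 0.53, DESeq2 adjusted p = 0.472) with its zinc-PBS mice above all water-PBS mice, and *Foxo3* at 0.29 (0.01 to 0.56, 0.839) with overlap. *Ulk1* was at log2 0.22, *Gabarapl1* at 0.21, *Foxo1* at 0.14, *Tfeb* at 0.11, *Rb1cc1* at 0.05, *Wipi1* at -0.03 and *Sqstm1* at -0.13, all overlapping with water-PBS. Among the Dex mice, zinc left 9 without a call as well. The zinc-Dex mice were above all water-Dex mice for *Foxo1*, *Ulk1* (log2 0.29, -0.09 to 0.66) and *Rb1cc1* (0.18, 0.01 to 0.36), with DESeq2 adjusted p of 0.261, 0.686 and 0.457. The 2 Dex groups overlapped for *Bnip3* (log2 0.24), *Gabarapl1* (0.20), *Foxo3* (0.16), *Wipi1* (0.15), *Sqstm1* (-0.02) and *Tfeb* (-0.29). For the zinc comparisons the share of all genes whose 2 groups were wholly apart was not computed. The 2 genes apart for zinc alone and the 4 apart for zinc among Dex mice thus have no share to be set against.

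For the combined treatment, zinc-Dex was set against water-PBS, and 8 of the 10 genes passed, 7 higher and 1 lower, where 14.8% of all genes did. That share is 3174 of 21401 genes left by the independent filter, against 3067 of 14221 for Dex on plain water. The 2 shares are not on the same base, and with TMM factors in DESeq2 3455 of 14221 genes passed here. *Foxo1* was 2.87-fold higher (DESeq2 adjusted p = 6.65e-58), *Bnip3* 2.85-fold (1.14e-35), *Foxo3* 2.83-fold (6.16e-25), *Map1lc3b* 2.43-fold (2e-26) and *Ulk1* 1.98-fold (5.24e-06). *Rb1cc1* was 1.33-fold higher (8.87e-05) and *Gabarapl1* 1.27-fold (0.0197), while *Tfeb* was 0.591-fold (0.0219). *Wipi1* was at log2 0.34 (0.07 to 0.62, DESeq2 adjusted p = 0.08) and *Sqstm1* at -0.15 (-0.36 to 0.06, 0.487). This comparison shares the water-PBS mice with that of water-Dex. *Gabarapl1* did not pass here without water-PBS replicate 1 or 3 or zinc-Dex replicate 1, and *Tfeb* without water-PBS replicate 3 or zinc-Dex replicate 1 or 3, or with only the libraries of the 2 groups in the fit (adjusted p = 0.0595). Scaled by total counts, *Rb1cc1* and *Gabarapl1* did not pass here (log2 0.17 and 0.11, DESeq2 adjusted p = 0.144 and 0.456), and *Sqstm1* passed as lower (-0.39, 0.000495).

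The interaction of zinc and Dex, the difference between the Dex effects on zinc and on plain water, passed for 0 of the 10 genes by DESeq2 and by edgeR, and 0 had an unadjusted p under 0.05. Among all genes 0.0229% passed. Its log2 value was 0.20 for *Map1lc3b* (-0.12 to 0.52), -0.24 for *Bnip3* (-0.57 to 0.08), -0.40 for *Tfeb* (-1.08 to 0.29), 0.18 for *Wipi1* (-0.21 to 0.56) and 0.13 for *Rb1cc1* (-0.12 to 0.38). It was -0.13 for *Foxo3* (-0.52 to 0.25), 0.11 for *Sqstm1* (-0.19 to 0.40), 0.08 for *Foxo1* (-0.17 to 0.33), 0.07 for *Ulk1* (-0.46 to 0.59) and -0.01 for *Gabarapl1* (-0.33 to 0.31). A change of the Dex response by zinc of a size within these intervals is not excluded. What size of change 3 mice per group could detect was not computed.

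The direction of the smaller changes depended on the scaling. Dividing by the total count in place of the size factors of DESeq2 moved the median log2 fold change of all genes with Dex to -0.21 on plain water and -0.24 on zinc. The share of passing genes that were higher then went from 54.0 to 23.5% on plain water and from 54.8 to 20.4% on zinc. On that scale the Dex calls of *Foxo1*, *Foxo3*, *Ulk1*, *Map1lc3b* and *Bnip3* held in both waters, and *Tfeb* passed in both, with log2 -0.67 on plain water (DESeq2 adjusted p = 0.0303). *Sqstm1* then passed as lower, at -0.32 on plain water (DESeq2 adjusted p = 0.005) and -0.25 on zinc (0.0364). *Rb1cc1* and *Wipi1* no longer passed on zinc, at 0.13 and 0.14, and *Gabarapl1* changed sign without passing, at -0.05 and -0.09.

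Between genes, levels were compared as RPKM (reads per kilobase of exon, scaled to the library total). The length was that of all annotated exons of a gene merged, such as 2013 bases for *Gabarapl1*, 6488 for *Ulk1* and 7517 for *Map1lc3b*. The transcripts present in liver can be shorter, so the order of genes depends on this choice of length. In water-PBS *Gabarapl1* was at 134 ± 18 (SD, n = 3) and *Sqstm1* at 116 ± 11, and their mice overlapped. *Bnip3* followed at 27.4 ± 4.3, *Ulk1* at 15.0 ± 3.0 and *Map1lc3b* at 10.7 ± 0.93, each apart from its neighbours. *Foxo3* at 5.91 ± 1.2 overlapped with *Wipi1* at 5.30 ± 0.10, *Foxo1* at 4.81 ± 0.25 overlapped with *Rb1cc1* at 4.36 ± 0.35, and *Tfeb* was last at 1.09 ± 0.27. In water-Dex the neighbours were all apart: *Foxo1* at 10.3 ± 0.44 stood above *Wipi1* at 5.30 ± 0.61, and *Bnip3* at 57.6 ± 2.6 was nearer to *Sqstm1* at 92.8 ± 4.9. *Tfeb* was at 0.682 ± 0.11 there and at 0.542 ± 0.056 in zinc-Dex.

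The genes whose pattern over the 12 libraries was most like that of the 3 strongest Dex responders were found among 9574 genes by the root mean square difference of centred log2 levels. For *Foxo3* they were *Gpt2*, an alanine aminotransferase gene, at 0.117, then *Bnip3* at 0.134 and *Foxo1* at 0.135. For *Bnip3* they were *Hopx* at 0.129, *Foxo3* at 0.134 and *Hivep2* at 0.140. For *Foxo1* they were *Sec14l4* at 0.0729, *Tnfrsf1b* at 0.0970 and *Cab39l* at 0.0993, and *Foxo3* was at 0.135. These differences are in log2 units and describe these libraries, which share 2 treatments.

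The wider pathway was followed in 5 lists of genes, which include some of the 10. Of 37 genes of the autophagy machinery, Dex raised 9 and lowered 3 on plain water, and raised 11 and lowered 2 on zinc. These were 32.4% and 35.1% of the list, against 21.6% and 20.1% of all genes. *Uvrag*, which belongs to a complex of the lipid kinase VPS34, went from 307 ± 50.2 to 502 ± 31.2 normalized counts on plain water (log2 0.71, DESeq2 adjusted p = 1.28e-07) and also rose on zinc (log2 0.71, adjusted p = 9.94e-08). *Atg101*, a subunit of the ULK1 complex, went from 276.5 ± 18.5 to 166 ± 19.5 (log2 -0.74, adjusted p = 6.79e-07) and fell on zinc as well (log2 -0.67, adjusted p = 1.28e-05). *Nrbf2*, another partner of VPS34, rose in both waters (log2 0.62 on plain water and 0.71 on zinc, DESeq2 adjusted p = 0.00275 and 0.000325). *Rubcn*, a brake on it, fell in both (log2 -0.46 and -0.81, DESeq2 adjusted p = 0.0129 and 1.89e-06), on zinc from 200 ± 15.1 to 114.5 ± 12.5. The median log2 fold change of the list was 0.11 in both waters. With total counts as size factors the list gave 6 higher and 9 lower on plain water, and 4 and 11 on zinc, so the balance of directions in it depends on the scaling.

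Of 15 receptors of selective autophagy, 6 rose with Dex and 0 fell, in each water, 40% of the list against 21.6% and 20.1% of all genes. The change was greatest for *Retreg1*, a receptor for the endoplasmic reticulum, which went from 1208 ± 88.0 to 5567 ± 130.0 normalized counts on plain water (log2 2.20, DESeq2 adjusted p = 2.54e-53) and from 1874 ± 463 to 6873 ± 352 on zinc (log2 1.87, adjusted p = 3.27e-39). Like *Bnip3*, it also rose with zinc alone (log2 0.63, DESeq2 adjusted p = 0.0041), a call that was lost with edgeR (adjusted p = 0.173) and without water-PBS replicate 1 (DESeq2 adjusted p = 0.0642). *Ncoa4*, the receptor for ferritin, rose 1.63-fold on plain water and 1.71-fold on zinc (log2 0.70 and 0.77), *Bnip3l* rose 1.35-fold and 1.44-fold, and *Tax1bp1* rose 1.36-fold in both. The median of the list was -0.03 on plain water and 0.09 on zinc, and in each water 9 genes, *Sqstm1* among them, did not pass. With total counts as size factors 4 of the 15 were higher and 6 lower on plain water, and 5 and 3 on zinc.

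Of 24 genes of lysosomes and targets of TFEB, which include *Tfeb* itself, 2 rose with Dex and 0 fell on plain water, and 2 rose and 1, *Tfeb*, fell on zinc. These were 8.33% and 12.5% of the list, below the 21.6% and 20.1% of all genes. *Ctsl*, the gene of the protease cathepsin L, went from 6910.0 ± 890.0 to 9302 ± 61.4 normalized counts on plain water (log2 0.43, DESeq2 adjusted p = 0.00228), and *Lamp2*, a lysosomal membrane gene, rose 1.20-fold (log2 0.27, adjusted p = 0.0085). On zinc they rose 1.41-fold and 1.20-fold. The call of *Lamp2* on plain water was lost without water-PBS replicate 1 or 2 or water-Dex replicate 1, and on zinc without zinc-PBS replicate 3 or zinc-Dex replicate 1 (DESeq2 adjusted p 0.0609 to 0.0844). The median of the list was -0.04 on plain water and -0.07 on zinc. With total counts as size factors 0 genes of this list were higher, and 9 were lower on plain water and 14 on zinc. *Npc1*, a cholesterol transporter of lysosomes, was higher in zinc-Dex than in water-Dex (log2 0.66, DESeq2 adjusted p = 0.00215), which edgeR did not call (adjusted p = 0.0581).

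Of 22 FoxO targets 21 were tested, and Dex raised 9 and lowered 2 on plain water and raised 10 and lowered 1 on zinc. These were 52.4% of the tested targets in each water, against 21.6% and 20.1% of all genes. *Igfbp1*, a binding protein of insulin-like growth factors, rose on plain water (977 ± 934 to 11700.0 ± 3290.0 normalized counts, log2 3.58, DESeq2 adjusted p = 0.00101). *Ccng2*, an inhibitory cyclin, went from 230.5 ± 62.9 to 809 ± 111 (log2 1.81, adjusted p = 1.11e-13), and *Pck1*, of gluconeogenesis, rose as well (log2 1.62, adjusted p = 0.00185). *Bcl6*, a transcriptional repressor gene, rose 3.74-fold (adjusted p = 0.0341), from 60.1 to 295.1 in water-PBS to between 323.9 and 924.2 normalized counts in water-Dex. That call was lost in 7 of 20 alternatives, among them leaving out water-PBS replicate 2 or 3, water-Dex replicate 2 or 3, or zinc-Dex replicate 1 (DESeq2 adjusted p 0.0524 to 0.213). On zinc *Igfbp1* rose by log2 4.83, *Pdk4*, a brake on glucose oxidation, by 2.83, *Pck1* by 2.36 and *Ccng2* by 1.99, and *Pdk4* did not pass without zinc-Dex replicate 2 (DESeq2 adjusted p = 0.0547). *Gadd45a*, with a mean of 27.97 normalized counts, was lower in both waters (log2 -2.26 and -2.22). *Sesn3* was lower on plain water (log2 -0.40), and these 2 genes were picked out after their values were seen. On plain water *Pdk4* did not pass with Dex (log2 0.89, DESeq2 adjusted p = 0.516). There it held 1006, 173.8 and 131.8 normalized counts in water-PBS and 397, 1566 and 473 in water-Dex, so 1 water-PBS library stood far above the others. The interaction of zinc and Dex did not pass for *Pdk4* (log2 1.93). Without Dex, zinc lowered *G6pc*, the glucose-6-phosphatase gene (2600.0 ± 771 to 789 ± 233 normalized counts, log2 -1.72, DESeq2 adjusted p = 0.000486). *G6pc* did not pass with Dex in either water (log2 -0.50 on plain water and 0.44 on zinc, DESeq2 adjusted p = 0.328 and 0.428). With both treatments against neither it was lower (log2 -1.28, DESeq2 adjusted p = 0.00196). With total counts as size factors 7 targets were higher and 4 lower with Dex on plain water, and 9 and 5 on zinc. The median of the list was 0.15 on plain water and 0.44 on zinc. Some of these targets are also known targets of GR.

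Of 16 genes of mTORC1 and its brakes, 4 were higher and 6 lower with Dex on plain water, and 3 were higher and 0 lower on zinc. These were 62.5% and 18.8% of the list, against 21.6% and 20.1% of all genes. The interaction of zinc and Dex passed for 0 genes of this list, and for 0 genes of each other list. The 2 counts are therefore not a tested difference between the waters. Scaled by total counts, 4 were higher and 8 lower on plain water, and 3 and 5 on zinc, and edgeR called 5 on zinc. *Ddit4*, the gene of the mTORC1 inhibitor REDD1 and a known GR target, had the greatest change of any listed gene: 86.8 ± 33.3 to 2984 ± 482 normalized counts on plain water (log2 5.11, DESeq2 adjusted p = 2.25e-136) and 58.3 ± 12.1 to 2978 ± 303 on zinc (log2 5.67, adjusted p = 1.29e-158). *Sesn1* and *Sesn2*, genes of leucine-sensing inhibitors, rose with it, *Sesn1* by log2 1.46 on plain water and 1.66 on zinc, and *Sesn2* by 0.72 and 1.47. *Tbc1d7*, of the TSC complex that restrains mTORC1, fell on plain water (log2 -0.54, DESeq2 adjusted p = 0.0256), a call lost in 6 of 20 alternatives, among them leaving out water-PBS replicate 1 or 2 or water-Dex replicate 1 or 2 (DESeq2 adjusted p 0.077 to 0.169). The other genes that passed on plain water were *Sesn3* (log2 -0.40), *Tsc1* (-0.32), *Mlst8* (-0.61), *Castor2* (-0.84) and *Ddit4l* (-1.55) as lower and *Castor1* (1.24) as higher. Their DESeq2 adjusted p was 0.00119 to 0.0461, and they were picked out after their values were seen. *Mlst8*, *Castor2*, *Ddit4l* and *Castor1* had means below 50 normalized counts. The *Sesn* genes thus went in both directions on plain water. The median of the list was -0.01 on plain water and 0.01 on zinc. *Sesn1* was also higher in zinc-Dex than in water-Dex (655.7 ± 43.2 to 999 ± 179 normalized counts, log2 0.61, DESeq2 adjusted p = 0.00458), a call lost with edgeR (adjusted p = 0.0584) and without water-Dex replicate 1 or zinc-Dex replicate 1 (DESeq2 adjusted p = 0.0658 and 0.0848). The count on plain water went from 10 to between 4 and 8 when 1 mouse was left out, and was 4 without water-PBS replicate 2.

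With both treatments against neither, 10 genes of the autophagy machinery were higher and 2 lower, 6 receptors were higher and 0 lower, and 4 genes of the lysosome list were higher and 1 lower. Of the FoxO targets 9 were higher and 3 lower, and of the mTORC1 list 3 were higher and 3 lower. In this order these were 32.4%, 40%, 20.8%, 57.1% and 37.5% of the tested genes, against 14.8% of all genes tested. As said above, that 14.8% is of the 21401 genes left by the independent filter. With TMM factors in DESeq2 3455 of 14221 genes passed, and the lysosome list gave 4 higher and 1 lower of 24. Whether the lysosome list stood above all genes thus depends on this base. With total counts as size factors the autophagy list gave 5 higher and 8 lower, and the receptors 5 and 5. The lysosome list then gave 2 and 8, and the FoxO targets 8 and 5. The mTORC1 list gave 4 higher and 4 lower of 16 with TMM factors in DESeq2, so its count also moved with the scaling. *Atp6v1h*, the gene of a subunit of the lysosomal proton pump, was among the higher genes of the lysosome list (log2 0.63, DESeq2 adjusted p = 0.0316). Its zinc-Dex libraries held 1502, 726.5 and 689.2 normalized counts against 582.4 to 688.9 in water-PBS, so 1 library stood far above the others, and without it the call was lost (DESeq2 adjusted p = 0.27), as it was without water-PBS replicate 2 or 3 (0.0889 and 0.0592). Zinc alone moved 2 receptors, *Retreg1* and *Bnip3*, and 1 FoxO target, *G6pc*, and 0 genes of the other 3 lists passed in DESeq2. Of all genes tested 0.341% passed there. With edgeR neither receptor passed, while *G6pc* did (adjusted p = 0.0309). Among Dex-injected mice, where 1.35% of all genes passed, zinc raised *Map1lc3b*, *Npc1* and *Sesn1*, the last of which stands in 2 lists, and 0 receptors passed. edgeR called none of these 3.

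**Figure D4:**
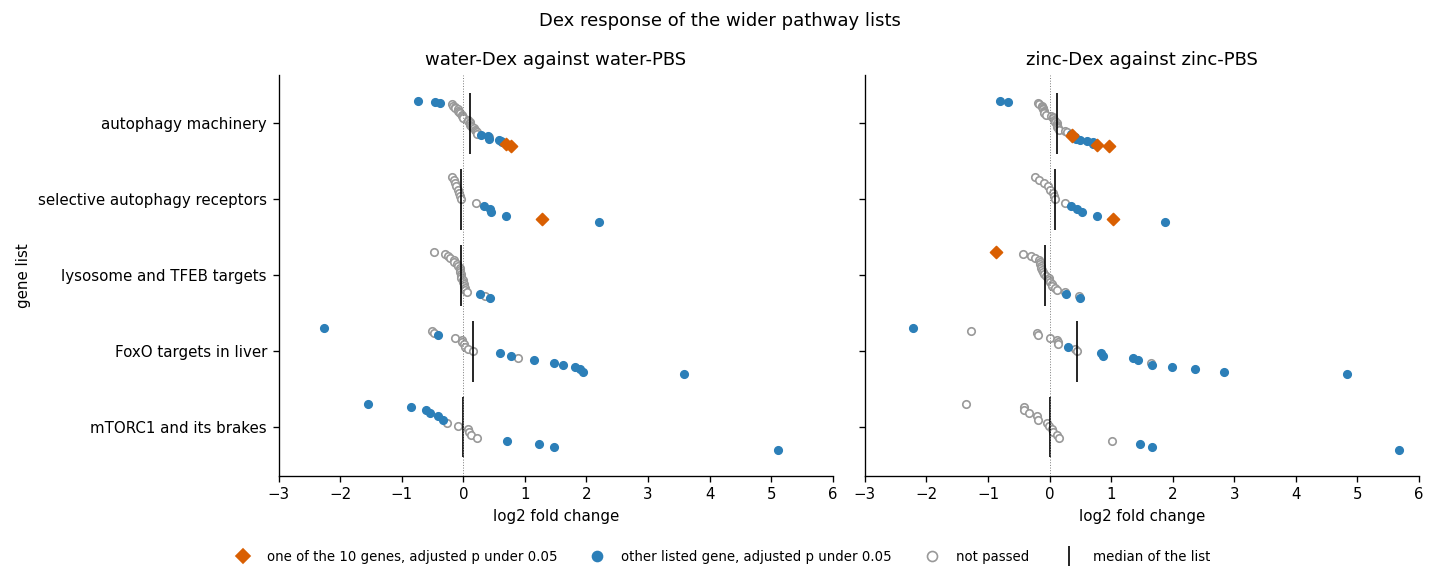
Log2 fold change with Dex (x axis) of each tested gene of the 5 lists (y axis) in mice on plain water (left) and zinc water (right). Filled points have an adjusted p under 0.05, diamonds are among the 10 genes, and black bars are list medians, which, with the size factors of DESeq2, lie between -0.07 and 0.44.

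Markers of other liver cells were followed beside these results. The summed CPM (counts scaled to the library total) of 5 markers of sinusoidal endothelium were 319 to 340 in water-PBS and 272 to 310.3 in water-Dex. Of these 5, 3 passed with Dex in each water, on plain water *Kdr* and *Fcgr2b* as lower (log2 -1.14 and -0.31) and *Lyve1* as higher (2.53). Of 6 markers of Kupffer cells 0 passed, with sums of 385 to 528 in water-PBS and 362 to 451 in water-Dex. The sum of 4 lymphocyte markers was 2.64 to 2.93 in water-PBS and 0.869 to 1.11 in water-Dex, and the B cell marker *Ms4a1*, with a mean of 5.65 normalized counts, passed as lower (log2 -2.80, DESeq2 adjusted p = 0.0129). On zinc that sum was 2.15 to 3.87 without Dex and 1.46 to 1.77 with it, and 0 of the 4 passed. Of 4 stellate cell markers, *Lrat* passed as lower on plain water (log2 -0.72) and *Dcn* as higher on zinc (0.34). Also on zinc, the red cell markers *Hba-a1* and *Hbb-bs* passed as higher (log2 0.95 and 0.76) and *Vil1*, of gut epithelium, as lower (-2.04, mean 9.54 normalized counts). Of the 4 bile duct and 4 neutrophil markers 0 passed with Dex in either water. Hepatocyte markers passed as higher with Dex for 3 of 6 genes on plain water, *Apoa1* by log2 0.59, *Serpina1c* by 0.41 and *Alb* by 0.30, and for 5 of 6 on zinc. The pancreatic markers *Prss2*, *Cpa1* and *Pnlip* were at 0 in all libraries. The part of these shifts in the results was not tested.

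The counting strand is not stated in the sources used here, so reads of opposite-strand genes could enter some levels. *Foxo3*, *Ulk1*, *Wipi1* and *Tfeb* share no exon bases with an annotated opposite-strand gene. *Foxo1* and *Bnip3* share 674 and 504 exon bases with genes that had 0 counts in all libraries. *Gabarapl1*, *Rb1cc1* and *Sqstm1* share 570, 558 and 580 bases with genes that had 21, 124 and 304 counts over the 12 libraries, against 37924, 8929 and 45128 of their own. *Map1lc3b* shares 58 of its 7517 exon bases with *Zcchc14*, which had 5892 counts against 15662.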

How the data were processed

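Total RNA of liver was made into stranded TruSeq libraries and sequenced as single-end reads on a NextSeq. According to the methods and the submitters' processing notes, the authors aligned reads with HISAT2 2.0.4 against mm10 and counted them per Ensembl gene with featureCounts, leaving out multimapping reads. The deposited table holds these raw counts, not normalized, with 1 column per mouse, and 0 columns were unused. The annotation release and the strand setting are not given in the sources used here. Symbols, coordinates and exon lengths for 54809 of the 54838 genes came from GENCODE M21 on GRCm38.

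Groups were compared with DESeq2 1.42.0 (R 4.3.3), as in the methods of the study, with all 12 libraries in 1 fit, 1 coefficient per group, Wald tests, independent filtering and Benjamini-Hochberg adjustment over all genes. Levels per length were reads per kilobase of exon scaled to the library total (RPKM). Ratios of 2 genes were tested by exact two-sided permutation of the Dex labels within each drinking water, which has 400 arrangements. With 3 mice against 3, a permutation test of 1 comparison cannot go below 0.10. The fits were tested on simulated data. Replicates of a group differed by 6.2 to 20.7 times counting noise (chi-square per degree of freedom), so none was a copy. Same-numbered mice of different groups did not deviate together (18 pairs, correlations -0.204 to 0.189, 1 over 0.1).

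The genes, the lists and the tests were chosen with earlier results of these data known, so no list is independent evidence. All 10 genes are named in every comparison. From each list and comparison up to 4 genes with the largest absolute log2 fold change are named among those that passed with mean normalized counts of 50 or more, and for the 3 strongest Dex responders the 3 genes of most like pattern. Further list genes are marked where they were picked out after their values were seen. Promoters were read from RefSeq sequence. Alternatives were TMM factors in DESeq2, the quasi-likelihood test of edgeR 4.0.16 with TMM and filterByExpr, at least 10 counts in at least 3 libraries, the replicate number as a term, each library left out in turn, only the groups compared, a fold change limit, no independent filtering and no Cook's filter. Total counts as size factors were added after seeing the data.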

Additional observations from a re-analysis of the deposited data

How the results depend on the processing

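Of the 10 genes, *Foxo1*, *Foxo3*, *Ulk1*, *Map1lc3b* and *Bnip3* passed as higher with Dex in both waters in all 20 alternatives other than the fold change limit, and no gene passed for the interaction in any. With zinc alone the count of the 10 genes that passed went from 1 to 0 with edgeR, total counts as size factors, the replicate block or a fold change limit, and ranged from 0 to 1 when 1 mouse was left out. For zinc after Dex it went from 1 to 0 with edgeR or the fold change limit, and again ranged from 0 to 1 with 1 mouse left out. The fold change limit, under which *Ulk1* in both waters and *Map1lc3b* on plain water do not count, left 3 with Dex on plain water, 5 on zinc and 5 for zinc-Dex against water-PBS. The same-numbered mice share only a number: the replicate block changed the calls of *Bnip3* for zinc alone (DESeq2 adjusted p = 0.0898) and of *Wipi1* for Dex on zinc (0.0796) among the 10 genes.

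With zinc alone, the receptor list went from 2 to 0 with edgeR, to 1 with the replicate block and to 1 with total counts (0 to 2 with 1 mouse left out), the FoxO target list was 1 to 2 and the mTORC1 list 0 to 1 with 1 mouse left out, and the mTORC1 list was 1 with the filter on low counts. With Dex on plain water, the receptor and lysosome lists gave 10 and 9 with total counts, the lysosome list 1 to 3 with 1 mouse left out, and the mTORC1 list 6 with the replicate block and 4 to 8 with 1 mouse left out. With Dex on zinc, the lysosome list gave 14 with total counts, and the mTORC1 list 8 with total counts and 5 with edgeR or the filter on low counts. For zinc after Dex, the autophagy, lysosome, FoxO target and mTORC1 lists went from 1 to 0 with edgeR, and the autophagy, FoxO target and mTORC1 lists ranged from 0 to 1 with 1 mouse left out. The cause of these shifts was not tested.

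With total counts as size factors, the log2 difference of *Gabarapl1* with Dex turned to -0.053 on plain water and -0.093 on zinc, and that of *Wipi1* to -0.0018 on plain water, none passing. With 1 mouse left out, small values that did not pass crossed 0: *Wipi1* for zinc alone (-0.088 to 0.0064), *Sqstm1* for zinc after Dex (-0.069 to 0.037) and for Dex on zinc (-0.071 to 0.055), and the interaction of *Ulk1* (-0.131 to 0.285) and *Gabarapl1* (-0.128 to 0.081). The *Ulk1* to *Rb1cc1* log2 ratio ranged from 0.349 to 0.564 with 1 mouse left out. *Tfeb*, at 31 to 84 counts per library, is the gene where depth limits the precision most.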
